A study of Homo sapiens with 4 samples.

Results

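Prostaglandin signalling was followed in BEAS-2B cells, an immortalised line of human bronchial epithelial cells, through 10 genes taken from a list of symbols. The symbols were chosen with earlier results of these data known. The list held PLA2G4A, PTGS1, PTGS2, PTGES, PTGES2, PTGES3, PTGIS, PTGER2, PTGER4 and HPGD, and all 10 were among the 24424 symbols of the count files. RNA was sequenced in 4 conditions with 1 library each. The Control cells were left untreated, and the LPS cells received lipopolysaccharide, the outer-membrane lipid of gram-negative bacteria, for 2 hr. The WT PDZ+LPS cells were given a cell-penetrating peptide built on the first PDZ domain of ZO-1 for 24 hr before the same 2 hr of LPS. The mut PDZ+LPS cells were treated alike with a peptide in which a pair of adjacent glycines was replaced by alanines. All cells were labelled wild type and grown in the same bronchial epithelial medium, and no library had a peptide without LPS. The peptide libraries are written below as WT PDZ and mut PDZ. Every condition was a single library of one cell line, so differences could not be set against replicates and p-values were not computed. The 95% intervals hold counting error alone, for the libraries and not for the conditions, and PCR reads counted without molecular identifiers are not independent.

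Prostaglandins are short-lived lipid messengers made from arachidonic acid. Cytosolic phospholipase A2 (PLA2G4A) releases the fatty acid from membranes, the cyclooxygenases PTGS1 (COX-1, usually constitutive) and PTGS2 (COX-2, usually inducible) turn it into prostaglandin H2, and terminal synthases convert that into the final products. PTGES, PTGES2 and PTGES3 make prostaglandin E2 and PTGIS makes prostacyclin, while HPGD inactivates prostaglandins. PTGER2 and PTGER4 encode the EP2 and EP4 receptors for prostaglandin E2, which act through cyclic AMP. In airway epithelium prostaglandin E2 is known as both an inflammatory mediator and a restraint on inflammation.

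With LPS, PTGES and PTGER4 were more than 2-fold higher than in Control, whereas PTGS2 had at most 2 reads in any library. The sequence just before the RefSeq start of these genes is shown for that reason, PTGES and PTGER4 as the members that were higher together and PTGS2 as the inducible cyclooxygenase that was hardly counted. The 250 bases before each start are printed 5′ to 3′ on the gene's own strand from RefSeq promoters (GRCh38.p14), and 9 of the 10 genes had an entry. Capitals mark matches on either strand to a set of letters, chosen after values or sequences were seen. The letters were those of the GC box GGGCGG, the CCAAT box, the TATA box TATAAA and the cyclic AMP response half-site TGACG. The others were the EGR1 site GCGNGGGCG and the NF-kB (kB) consensus GGGRNNYYCC. In these letters R is A or G, Y is C or T and N is any base. The PTGES stretch lies at chr9:129753043-129753292 on the minus strand, that of PTGER4 at chr5:40679665-40679914 on the plus strand and that of PTGS2 at chr1:186680424-186680673 on the minus strand.
PTGES: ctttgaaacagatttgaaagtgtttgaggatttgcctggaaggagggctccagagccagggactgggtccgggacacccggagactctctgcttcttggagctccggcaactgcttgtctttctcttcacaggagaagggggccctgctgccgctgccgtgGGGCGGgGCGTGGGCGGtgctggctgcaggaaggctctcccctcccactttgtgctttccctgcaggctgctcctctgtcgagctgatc
PTGER4: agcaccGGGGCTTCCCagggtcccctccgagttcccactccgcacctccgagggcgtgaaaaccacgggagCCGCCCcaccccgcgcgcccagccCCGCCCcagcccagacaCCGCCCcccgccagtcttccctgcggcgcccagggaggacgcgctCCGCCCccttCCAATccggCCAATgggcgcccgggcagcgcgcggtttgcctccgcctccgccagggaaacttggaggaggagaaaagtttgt
PTGS2: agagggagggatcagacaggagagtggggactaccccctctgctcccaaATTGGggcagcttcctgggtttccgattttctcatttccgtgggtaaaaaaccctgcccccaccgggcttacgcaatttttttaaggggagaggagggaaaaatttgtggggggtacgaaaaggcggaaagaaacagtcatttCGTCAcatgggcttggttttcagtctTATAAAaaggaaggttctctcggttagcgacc
The PTGES stretch held 2 GC boxes, of which the one nearer the start overlaps the EGR1 letters. PTGER4 held 4 GC boxes, 2 CCAAT boxes and a match to the kB consensus that reads on both strands. PTGS2 held a TATA box, a cyclic AMP response half-site and a CCAAT box on the reverse strand. It had no exact match to the kB letters. Inexact forms of a site stay in lower case and were not searched, so a kB site in PTGS2 is not excluded. Among 35116 RefSeq promoter stretches of the same length, a GC box was present in 42.6%, a CCAAT box in 32.0%, the cyclic AMP half-site in 21.2%, the TATA box in 10.7%, the kB consensus in 9.96% and the EGR1 letters in 8.41%. The kB letters also stood in the stretches of PTGES3, PTGER2 and HPGD, and the EGR1 letters in those of PTGES2 and PTGER2. GC boxes also stood in those of PTGS1, PTGES2, PTGES3, PTGER2 and HPGD. The cyclic AMP half-site also stood in those of PTGES3, PTGER2 and HPGD, a TATA box in PTGS1 and a CCAAT box in HPGD. None of these genes was called in any comparison. These are matches of letters, and no binding was measured. Because the letters were chosen after values or sequences were seen, the shares among all promoters are a description and support nothing further.

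The deposited counts summed to between 19682929 (mut PDZ) and 25155647 (LPS) per library. They were divided by geometric size factors to give normalized read counts, and 1 was added before log2. A gene was called where it differed 2-fold or more and reached 16 normalized read counts in one of the libraries compared. Of the epithelial markers KRT5, KRT7, KRT8, KRT17, KRT18, KRT19, CDH1 and EPCAM, 8 of 8 had a mean of at least 16 normalized read counts, against 2 of 7 leukocyte markers (CD14 and CD68), 2 of 6 fibroblast markers (COL1A1 and PDGFRB) and 0 of 4 endothelial markers. The leukocyte markers PTPRC and MS4A1 and the fibroblast markers COL3A1 and LUM had 0 counts in every library. The summed markers ran from 75617 to 107390 normalized read counts for epithelium, highest in mut PDZ, from 731 to 897 for leukocytes, from 406 to 561 for fibroblasts and from 7.05 to 15.1 for endothelium. The epithelial markers did not move as one. KRT5, KRT7, KRT8, KRT17 and KRT18 were highest in mut PDZ, and KRT19 and EPCAM were not. CDH1 was lowest there, at 362 normalized read counts, against 552 in Control, 569 in LPS and 620 in WT PDZ. In such bulk RNA fewer cells that express a gene and less RNA per cell cannot be told apart. The mut PDZ library also differed by transcript length and GC content. Spearman's rho across 12792 genes of the log2 fold change with transcript length was 0.0650 for WT PDZ versus LPS and -0.590 for mut PDZ versus LPS, a description over genes of shared libraries. With GC content rho was -0.0833 for WT PDZ versus LPS and 0.402 for mut PDZ versus LPS. Beside log2 fold changes of the members that involve mut PDZ stands the value with the trends over length and GC content removed (the length-corrected value). Counts, levels and shares were not corrected.

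**Figure D1:**
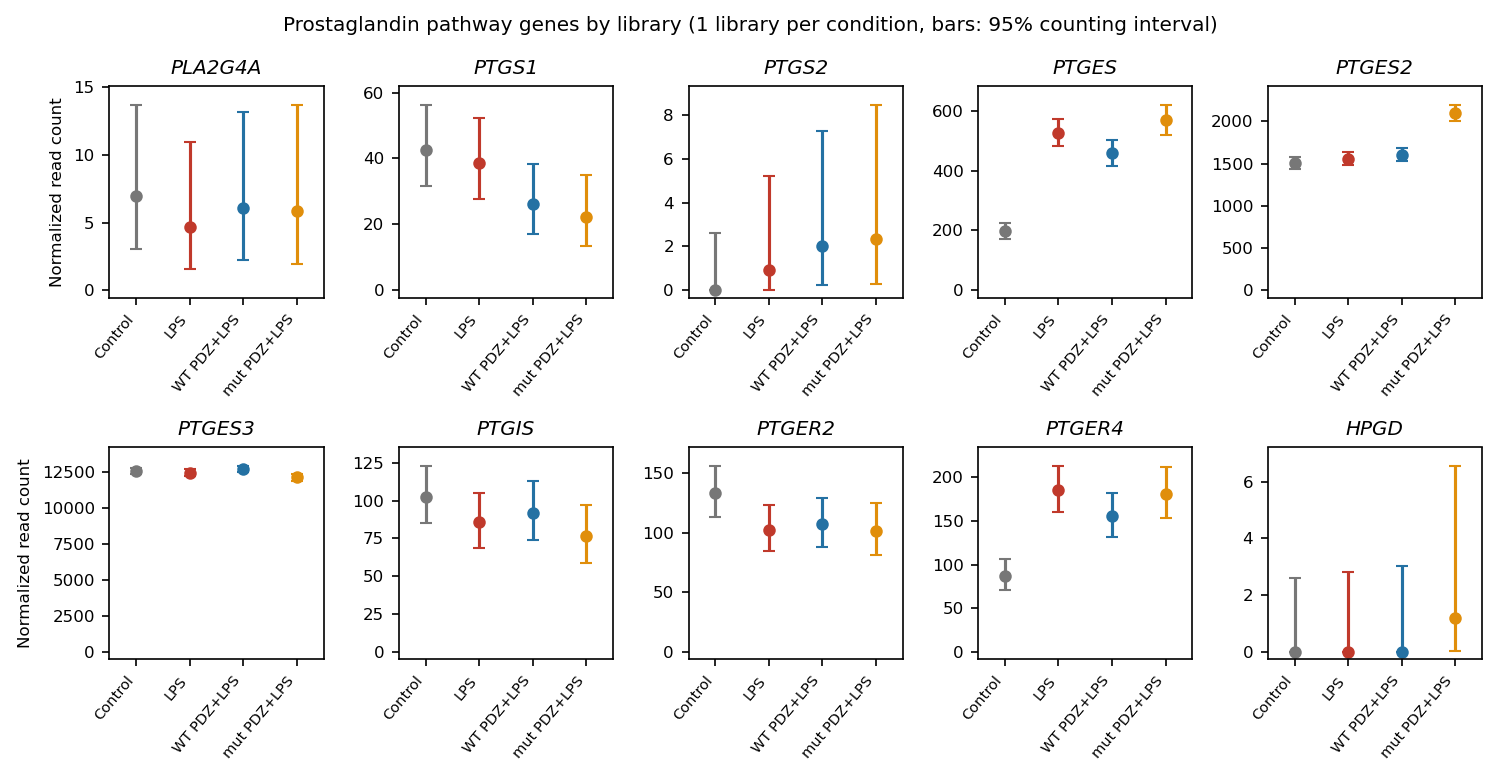
Normalized read counts (y axis, a linear scale for each gene) of the 10 prostaglandin genes in the 4 libraries (x axis), where points are 1 library each and bars are exact 95% Poisson counting intervals, or reach up to 3 counts where the count is 0. PTGES and PTGER4 sit lowest in Control, and PTGS2 and HPGD stay at 2 counts or fewer in every library.

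Few reads fell on PLA2G4A, PTGS2 and HPGD. PLA2G4A had 8 counts in Control and 5 in LPS, against 6 with WT PDZ and 5 with mut PDZ, below the 16 normalized read counts required for a call, and the counting intervals of the 4 libraries overlap. Some other phospholipases A2, named after their values were seen, had more reads, but not all. PLA2G2A and PLA2G5 had 0 counts in every library, PLA2G4F at most 1 and PLA2G10 at most 5. PLA2G4C had 15 counts in Control and 21 in LPS. PLA2G6, the calcium-independent enzyme, had 122 counts in Control and 139 in LPS, against 124 with WT PDZ and 109 with mut PDZ, and PLA2G4B, a cytosolic paralog of PLA2G4A with a readthrough transcript counted apart, had 140, 106, 133 and 152. In Control these were 32.5 and 40.8 normalized read counts per kilobase of transcript, against 2.42 for PLA2G4A. PTGS2, the cyclooxygenase classically induced by inflammatory stimuli, had 0 counts in Control and 1 in LPS, against 2 with WT PDZ and 2 with mut PDZ. With a fixed limit of 3 counts for a 0, the Control library allows up to 0.121 CPM (counts scaled to the library total). No fold is given, since every library was at or under 3 counts, and an LPS effect on PTGS2 was not detectable in these counts. The counting tool, annotation and strand setting behind the counts are not given in the sources used here, and their part in the low PTGS2 counts was not tested. This stood in libraries where 3.46% of the 13277 genes tested in LPS versus Control were called higher. PTGS2 was not alone in this range, since 8459 of the 24424 symbols (34.6%) had 3 counts or fewer in all 4 libraries. The antisense transcript of the PTGS2 locus, PACERR, had 0 counts throughout.

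PTGS1 was therefore the cyclooxygenase that was read, at a low level. It had 49 counts in Control and 41 in LPS, against 26 with WT PDZ and 19 with mut PDZ, or 42.6, 38.6, 26.3 and 22.3 normalized read counts in that order, which later sentences keep. Both peptide libraries lay below both libraries without peptide, with overlapping counting intervals. LPS versus Control was at -0.14 on the log2 scale (95% counting interval, -0.78 to 0.48), so that an LPS effect was not detectable. WT PDZ versus LPS was at -0.54 (-1.32 to 0.19) and mut PDZ versus LPS at -0.76 (-1.66 to 0.029), or -0.50 length-corrected, and both intervals reach 0. Only mut PDZ versus Control had an interval below 0 for this gene, at -0.90 (-1.78 to -0.14). Length-corrected it was at -0.67, a value for which no interval was computed. Between the peptides PTGS1 differed by -0.22 (-1.17 to 0.68), which turned to 0.037 length-corrected. PTGS1 and PTGS2 together had 49, 42, 28 and 21 counts, and PTGS2 made up 2 of 28 counts in WT PDZ (7.14%, exact binomial interval 0.877 to 23.5%) and 2 of 21 in mut PDZ (9.52%, 1.17 to 30.4%).

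Of the terminal synthases, PTGES (microsomal prostaglandin E synthase-1, the inducible form that is usually coupled to COX-2) was the member that moved most. It had 226 counts in Control and 560 in LPS, against 454 with WT PDZ and 484 with mut PDZ. These are 196.7, 527, 458 and 569 normalized read counts, so that the 3 libraries with LPS lay well above Control and their counting intervals do not overlap with it. The log2 fold change against Control was 1.42 in LPS (1.20 to 1.65, 2.67-fold), 1.22 in WT PDZ (0.99 to 1.46, 2.32-fold) and 1.53 in mut PDZ (1.30 to 1.77, 2.88-fold). Length-corrected, these were 1.46, 1.27 and 1.30, so that mut PDZ then stood below LPS. PTGES ranked 287 from the top of 13277 genes in LPS versus Control, 330 of 13284 in WT PDZ versus Control and 351 of 13434 in mut PDZ versus Control, comparisons that share the Control library.

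PTGES2, the membrane-associated prostaglandin E synthase-2, and PTGES3, the cytosolic synthase also known as the HSP90 co-chaperone p23, had higher counts and smaller differences. PTGES2 had 1735 counts in Control and 1653 in LPS, against 1588 with WT PDZ and 1786 with mut PDZ, or 1510, 1555, 1604 and 2099 normalized read counts, with mut PDZ above the others. In LPS versus Control PTGES2 was at 0.042 on the log2 scale (-0.056 to 0.14), which became -0.089 with scaling by the total count. In mut PDZ versus LPS it was at 0.43 (0.34 to 0.53), but at 0.021 length-corrected. PTGES3 had 14466, 13245, 12563 and 10323 counts from Control to mut PDZ, and 12590, 12459, 12686 and 12130 normalized read counts. Its LPS versus Control log2 fold change was -0.015 (-0.049 to 0.019), the tightest counting interval of the members. PTGES2-AS1, a separate symbol named as antisense to PTGES2, had 29 to 34 counts per library, far below those of PTGES2.

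Shares within a library do not depend on the size factors. PTGES took 226 of the 16427 counts of the prostaglandin E synthases in Control (1.38%, exact binomial interval 1.20 to 1.57%) and 560 of 15458 in LPS (3.62%, 3.33 to 3.93%). The share was 3.11% in WT PDZ (2.83 to 3.40%) and 3.84% in mut PDZ (3.51 to 4.19%). It was higher with LPS in every library, and the intervals of WT PDZ and mut PDZ did not overlap, although those of each with LPS did. In mut PDZ this share moves with the length and GC trend too, given below for PTGES. Set per transcript length, the PTGES share was 1.63% in Control and 4.26% in LPS, so that PTGES3 still made up most of the synthase transcripts. PTGIS, prostacyclin synthase, had 118, 91, 91 and 65 counts from Control to mut PDZ, or 103, 85.6, 91.9 and 76.4 normalized read counts. Its LPS versus Control log2 fold change of -0.26 (-0.67 to 0.14) was within counting error.

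**Figure D2:**
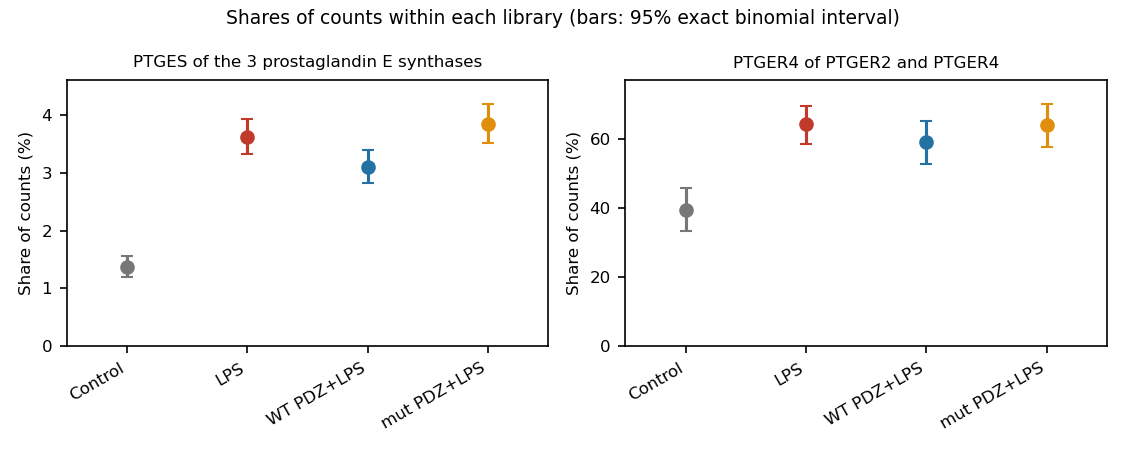
Share of counts in percent (y axes from 0) taken by PTGES among the prostaglandin E synthases, left, and by PTGER4 among PTGER2 and PTGER4, right, in each library (x axis), with exact 95% binomial intervals as bars. Both shares are lowest in Control, at 1.38% and 39.5%, and their Control intervals lie below those of the 3 libraries with LPS.

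Of the prostaglandin E2 receptors, PTGER4 was called higher with LPS and PTGER2 was called in no comparison. PTGER4 had 100 counts in Control and 197 in LPS, against 154 with WT PDZ and 154 with mut PDZ, or 87.0, 185, 156 and 181 normalized read counts, with Control below the others. Its log2 fold change was 1.08 in LPS versus Control (0.74 to 1.45, 2.12-fold), 0.83 in WT PDZ versus Control (0.46 to 1.22, 1.78-fold) and 1.05 in mut PDZ versus Control (0.68 to 1.43, 2.07-fold), or 1.19 length-corrected in mut PDZ. All of these intervals lie above 0 and all hold the 2-fold line, so PTGER4 stands at the edge of the call, and scaling by the total count took LPS versus Control to 0.95 and mut PDZ versus Control to 0.95, just under it. PTGER2 had 153 counts in Control and 109 in LPS, against 106 with WT PDZ and 86 with mut PDZ, or 133, 103, 107 and 101 normalized read counts, highest in Control. It was at -0.37 in LPS versus Control (-0.74 to -0.013), -0.31 in WT PDZ versus Control (-0.69 to 0.052) and -0.39 in mut PDZ versus Control (-0.80 to -0.0077, or -0.40 length-corrected), under 2-fold in each.

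The share of PTGER4 among the counts of both receptors was higher in every library with LPS. PTGER4 made up 39.5% of PTGER2 and PTGER4 counts in Control (100 of 253, exact binomial interval 33.5 to 45.8%) and 64.4% in LPS (197 of 306, 58.7 to 69.7%). In WT PDZ it was 59.2% (154 of 260, 53.0 to 65.3%) and in mut PDZ 64.2% (154 of 240, 57.7 to 70.2%). The intervals of the LPS-treated libraries overlap each other and none reaches that of Control. In the annotation (GENCODE 29, GRCh38) PTGER4 overlaps TTC33 on the opposite strand and the strand setting is unknown. TTC33 had 494, 481, 402 and 345 normalized read counts from Control to mut PDZ, and the part of TTC33 reads in the PTGER4 counts was not tested. HPGD, which encodes the NAD-dependent dehydrogenase that inactivates prostaglandin E2, had 0 counts in Control, LPS and WT PDZ and 1 in mut PDZ. With the same fixed limit of 3 counts, the 0 of the LPS library allows up to 0.119 CPM.

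**Figure D3:**
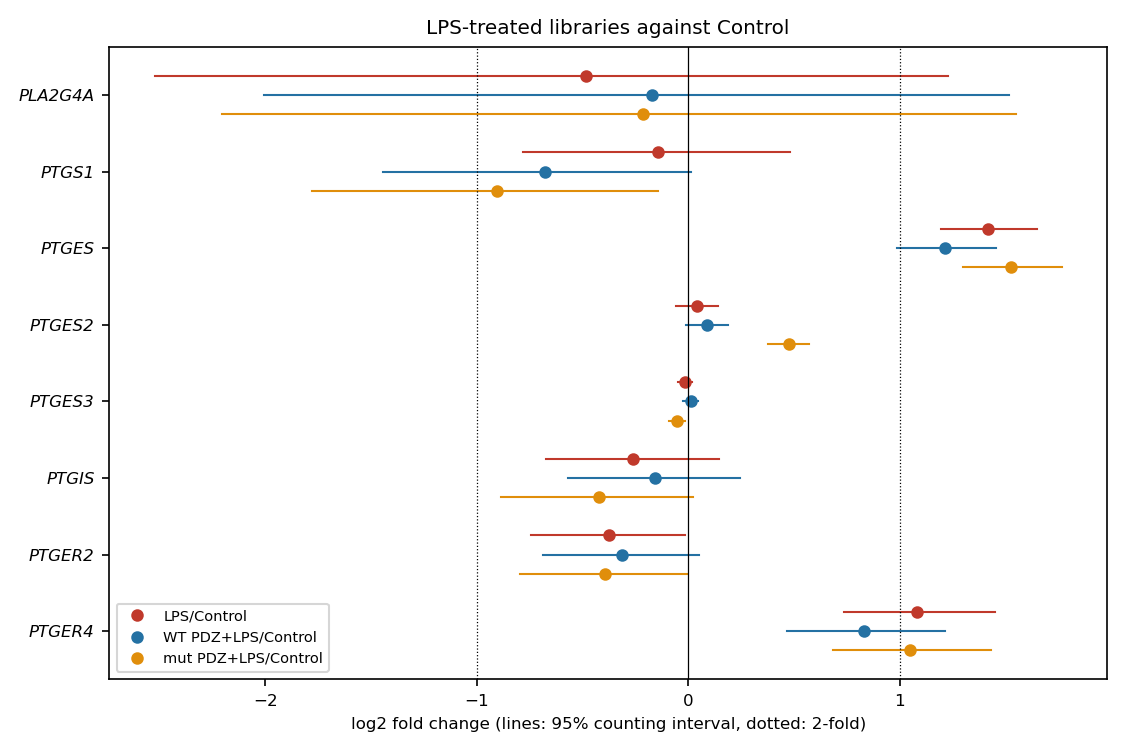
log2 fold change (x axis) of the 8 genes with more than 3 counts in LPS (red), WT PDZ (blue) and mut PDZ (orange) against the shared Control library, without the length correction, with lines for 95% counting intervals, a solid line at 0 and dotted lines at 2-fold. PTGES is past the 2-fold line in all 3, PTGER4 in LPS and mut PDZ, and no gene is past it on the lower side.

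Counted over the list, 7 of the 10 genes passed the expression rule, the exceptions being PLA2G4A, PTGS2 and HPGD. In LPS versus Control 2 of these 7 were called higher (PTGES and PTGER4) and 0 lower, where 3.46% of all genes tested were called higher and 1.41% lower. In WT PDZ versus Control 1 was called higher (PTGES; 3.28% of all genes) and 0 lower (1.42%). In mut PDZ versus Control PTGES and PTGER4 were called higher (5.13%) and 0 lower (2.96%). The median log2 fold change of the 7 genes was -0.015 in LPS versus Control beside -0.0023 over all genes tested, since the other members stayed near 0 or below it. A gene passes the expression rule through its higher library, so these counts describe the list and support nothing further.

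**Figure D4:**
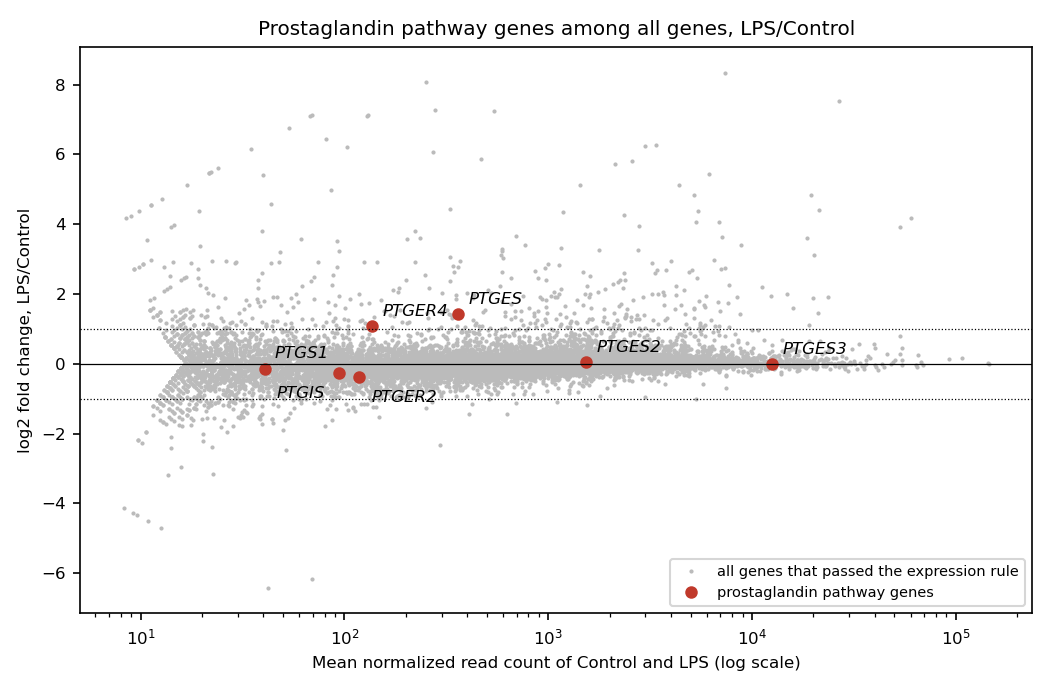
log2 fold change in LPS versus Control (y axis) against the mean normalized read count of both libraries (x axis, log scale) for the 13277 genes that passed the expression rule (grey) and the 7 prostaglandin genes among them (red), with dotted lines at 2-fold. PTGES, at 1.42, and PTGER4, at 1.08, lie above the upper dotted line and the other 5 between the lines.

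Levels can be compared between genes only per transcript length. In Control, PTGES3 was highest at 6062 normalized read counts per kilobase, followed by PTGES2 at 648, PTGES at 111, PTGER2 at 55.9, PTGER4 at 22.6, PTGIS at 18.4, PTGS1 at 8.46 and PLA2G4A at 2.42. Neighbours in this order were apart by more than their counting intervals except PTGER4 and PTGIS, and PTGS2 and HPGD, both at 0. In LPS the level of PTGES was 297 per kilobase, and PTGER4, at 48.2, stood above PTGER2, at 43.0, by less than their counting intervals. In WT PDZ PTGER2 (44.9) was again above PTGER4 (40.4) and in mut PDZ PTGER4 (47.0) above PTGER2 (42.4), with overlapping intervals in each. The lengths are those of the longest protein-coding transcript, and the isoform used by these cells was not measured.

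The peptides were compared at the same 24 hr before 2 hr of LPS. In WT PDZ versus LPS 0 of the 7 genes were called, where 0.635% of all genes were called higher and 0.733% lower. PTGES was the one member whose interval lay off 0, at -0.20 (-0.38 to -0.019, 0.871-fold), which left it 2.32-fold above Control. PTGER4 was at -0.25 (-0.57 to 0.059), PTGER2 at 0.061 (-0.34 to 0.46), PTGIS at 0.10 (-0.33 to 0.54), PTGES2 at 0.044 (-0.056 to 0.14) and PTGES3 at 0.026 (-0.0093 to 0.061). PTGS1, described above, was at -0.54 (-1.32 to 0.19). Apart from that of PTGES, differences of these sizes were not detectable at this depth, which does not show that the levels were alike.

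In mut PDZ versus LPS 0 of the 7 genes were called, where 2.05% of all genes were called higher and 1.90% lower. PTGES was at 0.11 (-0.068 to 0.29) and PTGER4 at -0.034 (-0.35 to 0.28). PTGES2 was higher at 0.43 and PTGES3 lower at -0.039 (-0.076 to -0.0015). Length-corrected, PTGES stood at -0.17, PTGER4 at 0.11, PTGES2 at 0.021 and PTGES3 at -0.13. With upper quartile scaling PTGER4 was at 0.030 and PTGES3 at 0.026, so the direction of PTGES, PTGER4 and PTGES3 against LPS was not stable.

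Set against each other, mut PDZ versus WT PDZ gave 0.31 for PTGES (0.12 to 0.50, 1.24-fold), 0.39 for PTGES2 (0.29 to 0.49) and -0.065 for PTGES3 (-0.10 to -0.027), and 0 of the 7 genes were called, where 2.12% of all genes were called higher and 2.14% lower. These are the members whose intervals lay off 0. Length-corrected, PTGES differed by 0.012 and PTGES2 by -0.024, whereas PTGES3 differed more, by -0.15. With upper quartile scaling PTGES3 differed by 0.00058. PTGER4 differed by 0.22 (-0.11 to 0.55), or 0.35 length-corrected, PTGER2 by -0.082 (-0.51 to 0.34), or -0.13, and PTGIS by -0.26 (-0.75 to 0.21), or 0.029, all with intervals that hold 0.

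**Figure D5:**
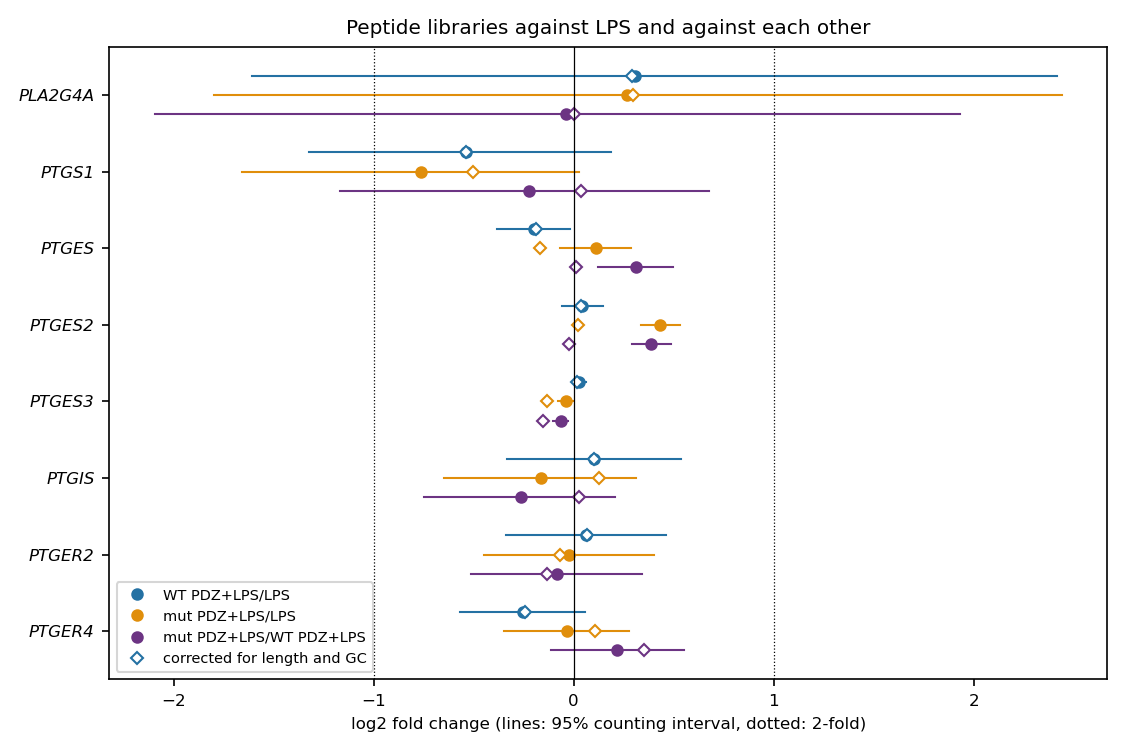
log2 fold change (x axis) of the same 8 genes in WT PDZ versus LPS (blue), mut PDZ versus LPS (orange) and mut PDZ versus WT PDZ (purple), with lines for 95% counting intervals and open diamonds for the length-corrected value. No point is past the dotted 2-fold lines, and the diamonds of PTGES2 lie near 0 where its mut PDZ points stand at 0.43 and 0.39.

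A wider list of 44 eicosanoid genes (other phospholipases, prostaglandin and leukotriene enzymes, receptors and transporters) set these values in their pathway. All 44 were in the files, 24 had a mean of at least 16 normalized read counts, and 13 had 3 counts or fewer in every library, among them HPGDS, which makes prostaglandin D2, the leukotriene receptors CYSLTR1 and CYSLTR2, and the prostaglandin receptors PTGER1, PTGER3 and PTGDR. In LPS versus Control 1 of the 26 genes that passed the expression rule was called higher, ALOXE3, an epidermal-type lipoxygenase, with 11 counts in Control and 24 in LPS, against 25 with WT PDZ and 24 with mut PDZ (log2 fold change in LPS versus Control 1.16, 0.15 to 2.41), and 0 were called lower, beside 3.46% and 1.41% of all genes. ALOXE3 was also called higher in WT PDZ versus Control (1.31) and mut PDZ versus Control (1.47, or 1.44 length-corrected). The phospholipase PLA2G4C was called higher in WT PDZ versus Control, with 27 counts against 15, and the prostacyclin receptor PTGIR in both mut PDZ versus Control and mut PDZ versus LPS, with 15 counts against 7 and 7. Length-corrected, PTGIR was at 1.02 in place of 1.39 versus Control and at 0.89 in place of 1.30 versus LPS. ALOX5, the first enzyme of leukotriene synthesis, was called lower in WT PDZ versus LPS, with 7 counts against 25 (-1.60, -3.19 to -0.48), beside 18 in Control and 13 in mut PDZ. Calls on the higher side were 2 of 25 genes in WT PDZ versus Control (3.28% of all genes), 2 of 25 in mut PDZ versus Control (5.13%) and 1 of 27 in mut PDZ versus LPS (2.05%), and on the lower side 1 of 25 in WT PDZ versus LPS (0.733%), so each rests on at most 2 genes. No gene of the wider list was called in mut PDZ versus WT PDZ. All of these called genes had fewer than 30 counts in every library.

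Per transcript length, the highest genes of the wider list in Control were PTGR1, a reductase that inactivates eicosanoids, with 2345 normalized read counts per kilobase, the aldo-keto reductase AKR1B1, which can make prostaglandin F2-alpha, with 1749, and LTA4H, which makes leukotriene B4, with 1218. All of these were higher per length than each member except PTGES3. In LPS they stood at 2185, 1987 and 1215. The median log2 fold change of the wider list in LPS versus Control was 0.10 over the 26 genes that passed, beside -0.0023 over all genes tested.

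The genes with a profile most like that of PTGES, by the Euclidean distance between the log2 fold changes of the 3 LPS-treated libraries against Control, were LOC100133091 (distance 0.069), HELZ2 (0.10), BCL3 (0.14), CNKSR3 (0.14) and DUSP6 (0.15). For PTGER4 they were HBEGF (0.058), RCL1 (0.065), BAHCC1 (0.073), TNKS1BP1 (0.075) and KLF6 (0.088). BCL3 is a cofactor of NF-kB, DUSP6 a phosphatase of ERK, HBEGF a ligand of the EGF receptor and KLF6 a zinc finger transcription factor. No function is given here for the other nearest genes, and a shared theme was not tested. The likeness of profiles rests on 4 libraries, of which Control is shared by each fold change, and is a description. The distances were taken without the length correction. In mut PDZ versus Control that correction moved PTGES from 1.53 to 1.30 and PTGER4 from 1.05 to 1.19. The counting intervals of both genes are also wider than these distances, so the order of the nearest genes is not firm.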

How the data were processed

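RNA from BEAS-2B cells was sequenced in 4 libraries, 1 per condition, from poly(A)-selected RNA with a directional kit. Trimmed reads were aligned by the authors with TopHat (hg19 in the submitters' processing notes), and the deposited values are raw counts of reads for each gene symbol. The counting tool and annotation are not given in the sources used here. The methods of the study name FPKM and geometric normalization, whereas the deposited counts are whole and unscaled, with totals of 24823347 (Control), 25155647 (LPS), 23446600 (WT PDZ) and 19682929 (mut PDZ). Size factors (1.15, 1.06, 0.990 and 0.851 in the same order) came from the geometric median of ratios (DESeq2 1.42.0, R 4.3.3), with upper quartile, total count and TMM (edgeR 4.0.16) scaling as alternatives. With no residual degrees of freedom no test was run. Intervals are 95% exact binomial for ratios and shares and exact Poisson for levels. A count of 0 is given a fixed limit of 3 counts, which is tighter than the upper end of its exact Poisson interval. Genes at or under 3 counts in both libraries get no fold. For length-corrected values, lowess trends (span 0.3) over transcript length and then GC content were subtracted, using for 12792 of 13072 genes the longest GENCODE 29 transcript, protein-coding where there was one. Named were the 10 members, the wider-list genes called in any comparison, its 3 highest per length in Control, the 5 nearest profiles of each member called in LPS versus Control, and symbols that overlap a member or are named as its copy or antisense. PTGES3L had 3 to 21 counts and PTGES3L-AARSD1 10 to 24. TTC33 and the promoter motifs were chosen after values or sequences were seen. The members and lists were chosen with earlier results of these data known. The steps were tested on simulated data. Intervals were computed in scipy 1.17.1, trends in statsmodels 0.14.6 and figures in matplotlib 3.10.9, under Python 3.11.15.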

Additional observations from a re-analysis of the deposited data

Results flagged for a closer look

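The members below lay on opposite sides of the LPS library in the WT PDZ and mut PDZ libraries, and with 1 library per condition the difference between the peptides' effects was not tested. For PTGES the log2 fold change versus LPS was -0.20 with WT PDZ and 0.11 with mut PDZ. PTGES3 was at 0.026 and -0.039, PTGIS at 0.10 and -0.16, and PTGER2 at 0.061 and -0.021 in the same order. Among these 8 values the counting interval lay off 0 for PTGES with WT PDZ and for PTGES3 with mut PDZ. Length-corrected, PTGES with mut PDZ was at -0.17 and PTGIS at 0.13, on the same side of LPS as with WT PDZ, and PTGES3 at -0.13 and PTGER2 at -0.066, on the other side.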

How the results depend on the processing

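No paired analysis was possible because each condition had 1 library, and for the same reason no library could be left out. No log2 fold change of a member past the 2-fold call turned its direction under another scaling, a pseudocount of 5 or the length correction. Of the 48 values of the members in all comparisons, 1 turned sign with TMM, 4 with total count scaling, 7 with upper quartile scaling and 8 with the correction, all of them of differences under 2-fold, among them PTGES in mut PDZ versus LPS (0.11, and -0.17 corrected). The number of members called was the same under TMM, upper quartile scaling, a pseudocount of 5, a minimum of 64 normalized read counts and the correction. With total count scaling the all-gene median of LPS versus Control dropped by 0.13, 1 member was higher in LPS versus Control, and 1 was higher and 1 lower (PTGS1) in mut PDZ versus Control. A threshold of 3-fold left 0 members higher in LPS, WT PDZ or mut PDZ versus Control. A threshold of 1.5-fold gave 2 higher and 1 lower (PTGS1) in WT PDZ versus Control and 1 lower (PTGS1) in both mut PDZ versus Control and mut PDZ versus LPS. With no expression rule, PTGS2 and HPGD, at 0 to 2 counts, brought the higher genes to 2 in WT PDZ versus Control, 4 in mut PDZ versus Control, 1 in mut PDZ versus LPS and 1 in mut PDZ versus WT PDZ. The correction moved 9 of 48 log2 fold changes past their counting intervals, all of them of PTGES, PTGES2 or PTGES3, total count scaling moved 6 and upper quartile scaling 4. Depth limits PLA2G4A, PTGS2 and HPGD most.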
